A study of Rattus norvegicus with 45 samples.

Results

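Aquaporins are a family of membrane channel proteins with 10 members examined here, Aqp1 to Aqp9 and Aqp11, each chosen by its gene symbol among 20794 genes listed in the deposited tables. Some carry water alone, and the aquaglyceroporins Aqp3, Aqp7 and Aqp9 carry glycerol as well. In the kidney, water is taken back through channels of the proximal tubule and through channels of the collecting duct that the hormone vasopressin controls. In fat, glycerol released by lipolysis leaves the cell through an aquaglyceroporin, and in the brain a channel in the endfeet of astrocytes lines the vessels.

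The tissues came from male spontaneously hypertensive rats, an inbred model of high blood pressure, aged 8 weeks and weighing 220 to 260 g in the study design. Empagliflozin rats received that inhibitor of the renal sodium-glucose cotransporter by gavage at 10 mg per kg per day for 30 days, and vehicle rats received saline in the same way. The arms differ in the drug alone by the labels, and all rats carry the hypertensive background, so no normotensive strain was compared. RNA was sequenced from kidney, brain, lung, aorta, white and brown fat and a tissue labelled V in both arms, and from atrium in empagliflozin rats, with 3 libraries in each of 15 groups and 45 in all. The design gives 3 rats per arm, so the 3 libraries of a group stand for 3 rats. No vehicle atrium library was analysed here.

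Levels are FPKM, the fragments of a gene divided by its length and by the mapped total of the library, which takes out gene length, so levels of different genes can be set side by side. FPKM holds no read totals, so the depth of a library is unknown. The sum of FPKM over all genes lay between 414248 and 824205 per library. A library correlated best with another of its own tissue in 43 of 45 cases, and the exceptions were both aorta libraries numbered 1, which correlated best with brown fat. The labels give the V libraries as liver and the design names ventricle. Over 9 cardiomyocyte markers the mean log2 level was 10.5 to 10.9 in the empagliflozin and 10.96 to 11.1 in the vehicle libraries labelled V, and over 8 hepatocyte markers 1.36 to 1.52 and 1.32 to 1.39. In bulk tissue, fewer cells of a type and less RNA per cell cannot be told apart.

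Each member was set to a place by its level. Of 450 member values, 164 reached 1 FPKM and 143 were listed at 0. Aqp1 reached a group mean of 1 FPKM in 8 tissues, Aqp7 in 6, Aqp11 in 5, Aqp4 in 3, Aqp2, Aqp5 and Aqp9 in 2 each, Aqp3 and Aqp6 in 1 each, and Aqp8 in 0. Kidney held the most members at that level, 8 in empagliflozin and 7 in vehicle rats, and the members together made up 0.352% to 0.441% of all FPKM in empagliflozin kidneys and 0.276% to 0.329% in vehicle kidneys.

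**Figure D1:**
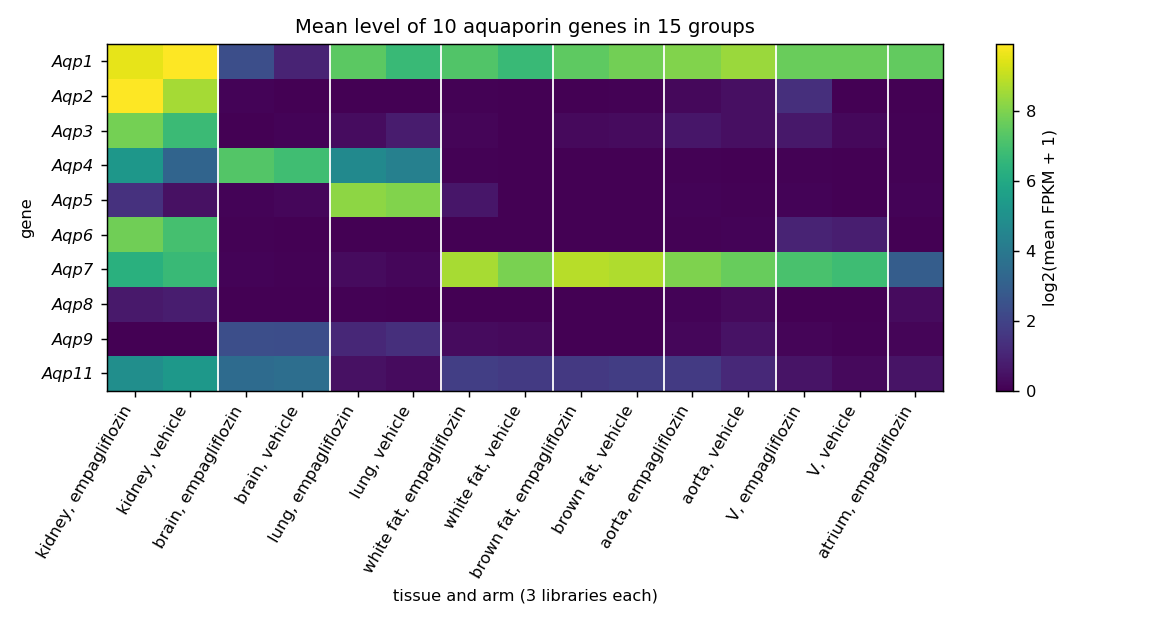
Mean level of each of 10 aquaporin genes (rows) in 15 groups of 3 libraries (columns, empagliflozin left of vehicle within a tissue), as log2(mean FPKM + 1) by colour. Aqp1 is high nearly everywhere except brain, and Aqp7 is high in both fats, aorta, V and kidney. Aqp5 is highest in lung, Aqp4 is highest in brain, and Aqp2, Aqp3 and Aqp6 are high in kidney.

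Aqp2, Aqp5 and Aqp6 lie next to each other in that order on rat chromosome 7 in the RefSeq annotation of GRCr8. Their sequences are shown because Aqp2 and Aqp6 had their highest levels in kidney and Aqp5, between them, in lung. Each window runs from 250 bases before to 50 bases after the start of the gene, on the plus strand, at chr7:132590036-132590335 for Aqp2, chr7:132601278-132601577 for Aqp5 and chr7:132610819-132611118 for Aqp6. Capitals mark ACGTCA, the reverse complement of the cAMP response element core TGACGT, and TTATCT, the reverse complement of the GATA site AGATAA.
Aqp2: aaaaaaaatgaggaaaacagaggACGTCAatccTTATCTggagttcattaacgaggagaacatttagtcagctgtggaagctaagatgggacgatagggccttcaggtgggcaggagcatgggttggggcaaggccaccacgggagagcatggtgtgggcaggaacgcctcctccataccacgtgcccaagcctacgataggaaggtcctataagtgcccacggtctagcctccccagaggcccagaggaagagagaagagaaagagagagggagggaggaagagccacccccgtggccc
Aqp5: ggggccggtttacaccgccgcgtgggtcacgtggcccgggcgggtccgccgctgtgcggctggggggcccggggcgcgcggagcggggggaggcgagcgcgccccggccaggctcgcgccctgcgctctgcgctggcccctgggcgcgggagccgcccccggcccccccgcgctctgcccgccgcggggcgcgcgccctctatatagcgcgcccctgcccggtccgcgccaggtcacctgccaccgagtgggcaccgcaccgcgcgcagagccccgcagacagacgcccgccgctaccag
Aqp6: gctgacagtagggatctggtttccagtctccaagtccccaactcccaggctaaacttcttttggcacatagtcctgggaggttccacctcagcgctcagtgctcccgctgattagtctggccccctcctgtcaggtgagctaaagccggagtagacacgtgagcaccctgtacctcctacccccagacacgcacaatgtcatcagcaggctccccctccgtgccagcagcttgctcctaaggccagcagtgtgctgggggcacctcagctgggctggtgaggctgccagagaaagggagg

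Both strands were searched for these motifs and for the TATA box TATAAA, and the matches do not overlap. In the Aqp2 window the first capitals begin 227 bases and the second 217 bases before the start, and the windows of Aqp5 and Aqp6 hold none of the 3 motifs. TGACGT occurs in 7.94%, AGATAA in 11.6% and TATAAA in 14.2% of 33469 rat windows of the same length, so a match is a description and not a site. Of the 9 members with a window in the table, Aqp1 and Aqp3 each hold TATAAA, 30 and 38 bases before the start, and the other 6 besides Aqp2 hold none of the 3. The windows differ in base composition, with 55.7% G and C for Aqp2, 82.3% for Aqp5 and 60% for Aqp6.

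In the collecting duct, Aqp2 is the vasopressin-regulated channel of the apical membrane of principal cells, the water-reabsorbing cells of that segment. Aqp2 stood at 1204, 419 and 1189 FPKM in empagliflozin kidneys and at 327, 443 and 368 FPKM in vehicle kidneys. Empagliflozin libraries 1 and 3 were higher than every vehicle library, and library 2 lay among them, so the arms overlapped. The difference on the log2(FPKM + 1) scale was 1.16 ± 0.41 (SE), with an unadjusted p of 0.0254 and an adjusted p of 0.418 (limma, Benjamini-Hochberg over all genes of the tissue), and so did not pass.

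Aqp3 and Aqp4 form the exit path for water in the basolateral membrane of the same cells. Aqp3 had 262, 100.6 and 317 FPKM in empagliflozin kidneys and 100.4, 123 and 97.7 FPKM in vehicle kidneys, with the same library 2 near the vehicle values. Aqp4 had 41.8, 15.4 and 51.9 FPKM in empagliflozin kidneys and 6.6, 7.8 and 10.0 FPKM in vehicle kidneys, and its arms did not overlap. The ratio of mean FPKM was 4.47 for Aqp4 and 2.12 for Aqp3. The log2 difference of Aqp4 was 1.89 ± 0.42 (SE), unadjusted p 0.00287, and that of Aqp3 was 0.93 ± 0.40, unadjusted p 0.0555, both with an adjusted p of 0.418 (limma).

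Aqp6, an intracellular channel of acid-secreting intercalated cells, had 216, 125 and 303 FPKM in empagliflozin kidneys and 99.2, 138 and 143 FPKM in vehicle kidneys. Its log2 difference was 0.69 ± 0.32 (SE), with an adjusted p of 0.418 (limma). Aqp5, best known from lung and glands, was low in kidney, with 1.77, 0.44 and 2.70 FPKM under empagliflozin and 0.16, 0.53 and 0.34 FPKM under vehicle. For Aqp6 and Aqp5 too, empagliflozin libraries 1 and 3 lay above all vehicle libraries and library 2 among them.

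The proximal tubule carries channels of its own. Aqp1, the constitutive water channel of that segment, had 709.8, 1182 and 308 FPKM in empagliflozin kidneys and 1159, 778 and 934 FPKM in vehicle kidneys. Aqp7, which carries glycerol in its last, straight stretch, had 82.1, 111 and 39.95 FPKM under empagliflozin and 118, 92.2 and 102 FPKM under vehicle. Aqp11, a channel of the endoplasmic reticulum, had 34.1, 35.55 and 15.6 FPKM under empagliflozin and 43.7, 33.4 and 36.8 FPKM under vehicle. Library 3 of the empagliflozin kidneys was the lowest of the 6 for each of these genes. The log2 differences were -0.57 ± 0.46 (SE) for Aqp1, -0.53 ± 0.35 for Aqp7 and -0.48 ± 0.30 for Aqp11, with adjusted p-values of 0.541, 0.476 and 0.466 (limma). Aqp8, a channel described in mitochondria, was listed between 0.26 and 0.86 FPKM in kidney and was below the level tested in every tissue.

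**Figure D2:**
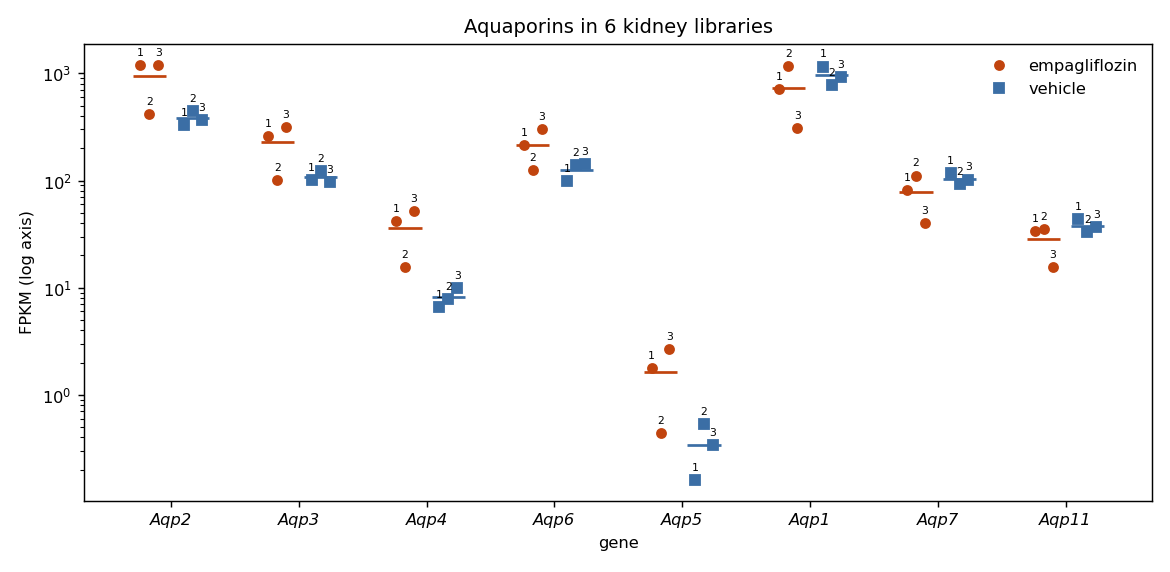
FPKM (log axis) of 8 aquaporin genes in 6 kidney libraries, empagliflozin (circles) left of vehicle (squares), with library numbers above the points and the mean as a bar. For Aqp2, Aqp3, Aqp6 and Aqp5 the empagliflozin libraries 1 and 3 sit above all vehicle libraries and library 2 among them, and for Aqp4 all 3 sit above them.

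Of the 8 members tested in kidney, 5 were higher and 3 lower under empagliflozin, and 0 passed the adjusted threshold of 0.05 with limma, as did 0 of 12848 genes tested there (0%). Aqp5 was 1 of the 5 and was tested only because its empagliflozin mean was 1.64 FPKM, with 0.343 FPKM under vehicle, which fixes its direction. Of the 7 members at 1 FPKM or more in both arms 4 were higher and 3 lower, and at an unadjusted p under 0.05, 2 were higher and 0 lower, beside 8.47% of all genes that were higher at that p. The arms did not overlap for 1 member, Aqp4, beside 13.6% of all genes that were higher without overlap, a share near that of the members. The median log2 difference was 0.69 over those 7 members and 0.10 over all genes tested. Relative to that median gene, Aqp4 was 1.78 and Aqp2 1.06 higher. Unlike the 7 members, all genes tested include those that reached 1 FPKM in only 1 arm. Without empagliflozin library 2, 636 of 12977 genes passed with limma (4.9%), and among them Aqp2 at 1.67, Aqp3 at 1.43, Aqp4 at 2.40 and Aqp6 at 1.03 on the log2 scale, with adjusted p-values between 0.0102 and 0.0484. Aqp5 passed too, but through the empagliflozin arm alone. Empagliflozin library 2, which lay among the vehicle libraries for Aqp2, Aqp5 and Aqp6, was the only kidney library whose removal changed the count of members called.

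Markers of the collecting duct cells put the kidney libraries in an order like that of Aqp2 and Aqp6. Over 10 principal cell markers, none of them an aquaporin, the mean log2 level was 6.38, 4.83 and 6.46 in empagliflozin kidneys and 4.35, 4.87 and 4.79 in vehicle kidneys. All 10 were tested, 10 of 10 had a higher mean under empagliflozin, 7 had an unadjusted p under 0.05 and 0 passed (limma). Over 10 intercalated cell markers the mean log2 level was 7.61, 6.23 and 8.13 under empagliflozin and 5.79, 6.99 and 6.67 under vehicle, with 10 of 10 higher and 0 passing. Over the proximal tubule list it was 6.69, 6.83 and 6.42 under empagliflozin and 6.99, 7.14 and 7.01 under vehicle. Those arms did not overlap, empagliflozin being lower, and 9 of 10 tested markers were lower with 0 passing. That list did not order the libraries as Aqp1 did. Aqp1 was highest in empagliflozin library 2 and the list in vehicle library 2. Podocyte markers, from the filter of the glomerulus, stood at 4.33, 3.64 and 5.23 under empagliflozin and 2.45, 2.94 and 3.99 under vehicle. The lists of the thick limb with the distal tubule and of endothelium also did not overlap, empagliflozin being higher with library 2 included. The first stood at 6.33, 6.31 and 6.75 under empagliflozin and 5.83, 5.95 and 6.06 under vehicle, with 6 of 9 tested markers higher. The endothelial list stood at 3.52, 3.41 and 4.12 under empagliflozin and 2.64, 3.25 and 3.35 under vehicle, with 9 of 10 higher. In both lists 0 markers passed. Over all genes tested in kidney 8577 were higher and 4271 lower.

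Set against the mean log2 level of its own cell's markers within each library, Aqp2 lay 3.86, 3.89 and 3.76 above the principal cell list in empagliflozin kidneys and 4.01, 3.93 and 3.74 above it in vehicle kidneys. The arm difference of this relative level was -0.06 for Aqp2 and -0.29 for Aqp3. Aqp5, not assigned to a kidney cell here, was set against the same list and differed by -0.34. Its mean in vehicle kidneys was 0.343 FPKM, where a pseudocount of 1 understates change. Aqp4 lay 0.96, 0.79 and 0.74 below the same list in empagliflozin kidneys and 1.42, 1.73 and 1.33 below it in vehicle kidneys, an arm difference of 0.67 without overlap. Relative to the intercalated cell list Aqp6 differed by -0.15, and relative to the proximal tubule list Aqp1, Aqp7 and Aqp11 differed by -0.17, -0.13 and -0.08. The part of cell composition in the kidney differences was not tested.

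**Figure D3:**
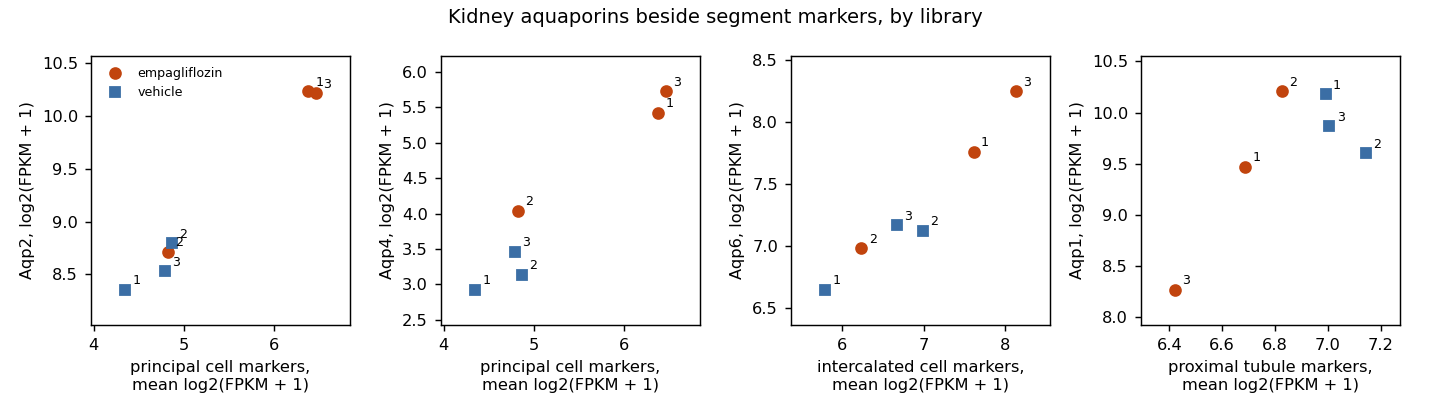
Level of Aqp2, Aqp4, Aqp6 and Aqp1 (vertical, log2(FPKM + 1)) against the mean log2(FPKM + 1) of the markers of the cell that carries each (horizontal) in 6 kidney libraries, with library numbers beside empagliflozin circles and vehicle squares. Aqp2 and Aqp6 order the libraries much as the collecting duct markers do, with empagliflozin libraries 1 and 3 at the top right, and for Aqp4 library 2 of the empagliflozin arm also lies above the vehicle libraries.

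The pathway that acts on these channels was read from a list of vasopressin signalling, osmotic response and urea transport. Of its 22 genes tested in kidney, 18 had a higher and 4 a lower mean under empagliflozin, 0 passed and 3 had an unadjusted p under 0.05 (limma). The lowest p belonged to Avpr2, the vasopressin receptor of principal cells, with 62.7, 20.7 and 59.8 FPKM in empagliflozin kidneys and 14.9, 16.7 and 15.01 FPKM in vehicle kidneys. Its arms did not overlap, and its log2 difference was 1.41 ± 0.40 (SE) with an adjusted p of 0.418. Avpr2 is also 1 of the 10 principal cell markers.

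Next by p were Ptger1, a prostaglandin E2 receptor, at 0.82 and Akr1b1, the aldose reductase that makes sorbitol under osmotic load, at 0.89 on the log2 scale. Adcy6, a cyclase that makes cAMP, was at 0.54, the receptor Ptger3 at 0.42 and the transcription factor Elf5 at 0.80. Of 19 genes of channel trafficking, which move Aqp2 vesicles to and from the membrane, 11 had a higher and 8 a lower mean, and 0 passed (limma). The median log2 difference was 0.32 over the vasopressin list and 0.06 over the trafficking list, beside 0.10 over all genes.

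Aqp4 in kidney was the 1 member whose arm difference in a tissue differed, past the adjusted threshold, from the mean of the other 6 tissues. This difference of differences was 1.76 ± 0.34 (SE) on the log2 scale, with an adjusted p of 0.0044 (limma, 42 libraries, 1 spread per gene over all tissues). In aorta, brown fat, white fat and V, Aqp4 was at most 0.11 FPKM, so 4 of the 6 other tissues held almost no level that could differ. The call was lost with a pseudocount of 0.1, at 1.69 with an adjusted p of 0.152. It was also lost without the libraries numbered 1, at 1.43 with an adjusted p of 1, and without those numbered 3, at 1.62 with an adjusted p of 0.362. Without the libraries numbered 2, Aqp2, Aqp3, Aqp5 and Aqp6 passed in kidney as well, among 4.19% of all genes. Aqp5 entered this fit through its level in lung, and its mean in vehicle kidneys was 0.343 FPKM. With all libraries the share of all genes past this test was 0.797% in kidney, 0.737% in lung, 0.487% in brain, 0.375% in white fat, 0.0951% in aorta, 0.0178% in V and 0% in brown fat. Aqp2, Aqp3, Aqp5 and Aqp6 had unadjusted p-values of 0.0086, 0.00291, 0.00572 and 0.00444 for the same contrast in kidney (limma) and did not pass. Outside kidney, Aqp2, Aqp3 and Aqp6 were at most 2.28 FPKM in any library. Aqp5 was at most 1.02 FPKM outside kidney and lung. Those tissues held almost no level that could differ, so for these genes the contrast mostly repeats the kidney difference, with a spread taken over such tissues.

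In brain, Aqp4 is the water channel of astrocyte endfeet. It had 141, 60.9 and 249.8 FPKM in empagliflozin brains and 135, 81.6 and 129.8 FPKM in vehicle brains. The arms overlapped, with the lowest and the highest value both under empagliflozin, and the log2 difference was 0.20 ± 0.50 (SE), adjusted p 0.987 (limma). Over 8 astrocyte markers the mean log2 level was 6.86, 6.49 and 7.48 under empagliflozin and 6.87, 6.85 and 7.06 under vehicle, and empagliflozin library 2 was lowest and library 3 highest for both measures. Of 11 tested genes that anchor the channel at the endfoot, such as the dystrophin complex, 7 had a higher and 4 a lower mean and 0 passed.

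Aqp1 in brain belongs to the choroid plexus, the tissue that makes cerebrospinal fluid. It had 0.29, 0.68 and 11.75 FPKM in empagliflozin brains and 0.54, 2.36 and 0.07 FPKM in vehicle brains, so 1 library carried the empagliflozin mean. In that library 8 choroid plexus markers had a mean log2 level of 2.03, against 0.871 and 0.385 in the other empagliflozin brains and 0.878, 1.02 and 0.504 in vehicle brains. Smooth muscle markers stood at 4.56 in the same library and between 2.11 and 2.92 in the other 5 brains. The part of the dissection in this value was not tested. Aqp9, which carries glycerol and lactate in some brain cells, had 3.88, 2.43 and 6.32 FPKM under empagliflozin and 3.43, 4.30 and 4.55 FPKM under vehicle. Aqp11 had 7.07, 12.7 and 10.7 FPKM under empagliflozin and 6.6, 14.1 and 12.25 FPKM under vehicle. Of the 4 members tested in brain 0 passed and 0 had an unadjusted p under 0.05, beside 0% of all genes past the adjusted threshold (limma).

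In lung, Aqp5 is the apical water channel of alveolar type 1 cells, the thin cells of gas exchange. It had 286, 209 and 393 FPKM in empagliflozin lungs and 219, 238 and 323 FPKM in vehicle lungs, with overlapping arms and a log2 difference of 0.16 ± 0.25 (SE), adjusted p 0.853 (limma). Relative to 8 markers of alveolar type 1 cells its arm difference was 0.01. Aqp4, on the basolateral side of the airway epithelium, had 23.25, 29.1 and 23.7 FPKM under empagliflozin and 18.2, 19.6 and 18.3 FPKM under vehicle, without overlap. Its log2 difference was 0.41 ± 0.11 (SE), with an unadjusted p of 0.00749 and an adjusted p of 0.627. Relative to the same markers of alveolar type 1 cells the arm difference of Aqp4 was 0.26, with overlap.

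Aqp1 in lung is the channel of capillary endothelium. It had 187, 169 and 158 FPKM in empagliflozin lungs and 60.25, 74.95 and 174 FPKM in vehicle lungs, so vehicle library 3 lay within the empagliflozin range. The log2 difference was 0.88 ± 0.36 (SE), with an adjusted p of 0.634 (limma). Without vehicle library 3 it was 1.33 with an adjusted p of 0.033, 1 of 51 genes called among 14196 tested (0.359%). Over 10 endothelial markers the mean log2 level was 7.15, 6.87 and 6.91 under empagliflozin and 6.02, 6.25 and 7.18 under vehicle, with the same vehicle library apart. Mesothelial markers, from the lining of the lung surface, stood at 4.96, 5.59 and 5.27 under empagliflozin and 3.07, 3.03 and 4.62 under vehicle. Relative to the endothelial list the arm difference of Aqp1 was 0.39 without overlap, and relative to the mesothelial list it was -0.82, also without overlap. The part of cell composition in the lung values was not tested.

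Of 4 members tested in lung, 3 were higher and 1 lower, Aqp9 at -0.23, and 0 passed, beside 0% of all genes (limma). Over all genes tested in lung 7979 were higher and 6182 lower. At an unadjusted p under 0.05, 2 members were higher, beside 4.59% of all genes, and 1 was higher without overlap, beside 8.01%. Aqp3, an airway basal cell channel, was under the level tested, with 0.19, 0.38 and 0.18 FPKM in empagliflozin lungs and 0.51, 1.01 and 0.53 FPKM in vehicle lungs. Those values did not overlap and had no test of their own. Aqp9, which macrophages and neutrophils also carry, had 1.21, 0.90 and 1.34 FPKM in empagliflozin lungs and 1.46, 1.10 and 2.04 FPKM in vehicle lungs.

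In fat, Aqp7 is the glycerol channel of the adipocyte. White fat had 348, 330.3 and 500.4 FPKM under empagliflozin and 191, 292 and 235 FPKM under vehicle, without overlap, a ratio of mean FPKM of 1.64. The log2 difference was 0.71 ± 0.27 (SE), and 0.89 relative to the median gene of white fat, whose shift was -0.18. The unadjusted p was 0.0299 and the adjusted p 0.559 (limma), so the difference did not pass. Over 8 adipocyte markers the mean log2 level was 10.8, 10.9 and 10.3 under empagliflozin and 10.8, 10.9 and 10.4 under vehicle. Relative to that list the arm difference of Aqp7 was 0.79 without overlap. Mesothelial markers stood at a mean log2 level of 4.97, 4.52 and 5.17 under empagliflozin and 3.52, 4.02 and 1.36 under vehicle, without overlap. All 7 of them were higher, 6 had an unadjusted p under 0.05 and 0 passed (limma). Brown adipocyte markers stood at 1.74, 2.14 and 5.63 under empagliflozin and 2.46, 2.25 and 2.26 under vehicle, and the library with the highest of these was also the one with the highest Aqp7. The part of cell composition in the white fat values was not tested.

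Of 13 tested genes of glycerol and triglyceride handling in white fat, 8 had a higher and 5 a lower mean, 0 passed and 2 had an unadjusted p under 0.05 (limma). These were the acyltransferases Gpam and Agpat2, which put fatty acids on glycerol phosphate, named after their values were seen. Gpam had 188, 203 and 185 FPKM under empagliflozin and 112, 76.2 and 73.1 FPKM under vehicle. Agpat2 had 362, 466 and 1339.85 FPKM under empagliflozin and 289, 251 and 192 FPKM under vehicle. Its highest value was in the empagliflozin library that also had the highest brown adipocyte markers. Neither gene's arms overlapped, and the log2 differences were 1.16 and 1.34 with adjusted p-values of 0.325 and 0.553.

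In white fat 3 of 3 members tested were higher and 0 passed, beside 0.00785% of all genes. Over all 12740 genes tested in white fat 3958 were higher and 8782 lower. At an unadjusted p under 0.05 and higher there was 1 member beside 2.66% of all genes, and 1 was higher without overlap beside 5.09%. Brown fat had more even values of Aqp7, 439, 494 and 430.1 FPKM under empagliflozin and 395, 514 and 369 FPKM under vehicle. The log2 difference there was 0.10 ± 0.16 (SE), and 0 of 3 members passed or had an unadjusted p under 0.05, beside 0.0085% of all genes past the adjusted threshold. Aqp1, the vessel channel, had 125, 92.4 and 225 FPKM in white fat under empagliflozin and 74.45, 189 and 46.6 FPKM under vehicle, a log2 difference of 0.66 ± 0.53 (SE). In brown fat it had 175, 151 and 195 FPKM under empagliflozin and 172, 211 and 278 FPKM under vehicle, a difference of -0.32 ± 0.19. The arms of Aqp1 overlapped in both fats. Aqp11, which adipocytes also express, had 2.21, 2.44 and 3.10 FPKM in white fat under empagliflozin and 2.23, 2.06 and 2.35 FPKM under vehicle. In brown fat Aqp11 had 2.06, 1.95 and 2.39 FPKM under empagliflozin and 1.80, 3.21 and 2.36 FPKM under vehicle.

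In white fat Aqp5 was listed at 1.02, 0.48 and 0 FPKM under empagliflozin and at 0 in all 3 vehicle libraries. The first 2 of these libraries also held transcripts of alveolar type 2 cells, whose 8 markers had a median of 0.238% and 0.128% of their lung level, with 0 of them listed at 0. In the same libraries Aqp5 had 0.367% and 0.173% of its lung level. In the third empagliflozin library 6 of the 8 markers were at 0, and in the vehicle libraries 3, 6 and 5. Markers of alveolar type 1 cells, which carry Aqp5 in lung, did not follow it in white fat. Their median was 1.29%, 1.20% and 1.10% of their lung level under empagliflozin and 1.15%, 1.35% and 1.41% under vehicle. The part of lung RNA in these values was not tested.

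Aorta was the tissue with the widest spread of Aqp7 between libraries of 1 arm. It had 434, 42.9 and 281 FPKM in empagliflozin aortas and 493, 35.2 and 45.8 FPKM in vehicle aortas. High and low libraries occurred in both arms and followed the fat cell markers, whose mean log2 level over 8 adipocyte genes was 9.71, 7.97 and 9.09 under empagliflozin and 9.63, 6.06 and 7.81 under vehicle. Smooth muscle markers ran the opposite way, at 5.62, 9.55 and 8.59 under empagliflozin and 5.06, 10.1 and 10.2 under vehicle. The log2 difference of Aqp7 was 0.89 ± 1.26 (SE), adjusted p 0.999 (limma), and lay between 0.21 and 2.09 when 1 library was left out. Without both libraries numbered 1, an alternative chosen after the data were seen, it was 1.43 with an adjusted p of 0.920. Aqp1, also a channel of red cells and vessels, had 188, 285 and 299.8 FPKM in empagliflozin aortas and 237, 299 and 494 FPKM in vehicle aortas. Aqp11 had 2.14, 3.27 and 1.10 FPKM in empagliflozin aortas and 2.99, 0.37 and 0.31 FPKM in vehicle aortas, with overlapping arms. Of 3 members tested in aorta 0 passed and 0 had an unadjusted p under 0.05, beside 0% of all genes past the adjusted threshold.

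The libraries labelled V held Aqp1 at 195, 185 and 217 FPKM under empagliflozin and 230.2, 198 and 166 FPKM under vehicle, a log2 difference of 0.01 ± 0.13 (SE). Aqp7, the glycerol channel also described in cardiac muscle, had 129, 122 and 149.6 FPKM under empagliflozin and 122, 122 and 92.6 FPKM under vehicle. Neither passed, beside 0.0085% of all genes. Aqp2 was listed at 0, 2.28 and 2.28 FPKM under empagliflozin and at 0 in all 3 vehicle libraries. It reached the level tested through the empagliflozin mean of 1.52 FPKM alone, which fixes the direction, so its values are a description with no test.

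The 2 libraries labelled V with Aqp2 also carried markers of the proximal tubule. The mean log2 level of that list was 0.0154, 0.702 and 0.859 under empagliflozin and 0.0141, 0.0215 and 0.0305 under vehicle. In empagliflozin libraries 2 and 3 the markers had a median of 0.183% and 0.200% of their kidney level, with 0 of 9 at 0, and Aqp2 had 0.346% of its kidney level in both. Aqp3 had 0.26, 0.52 and 0.89 FPKM under empagliflozin and 0.18, 0.09 and 0.21 FPKM under vehicle, all below the level tested. Aqp6 was present in all 6 libraries labelled V, at 0.41, 0.88 and 1.65 FPKM under empagliflozin and 0.52, 0.95 and 0.81 FPKM under vehicle, including the 4 libraries in which the median proximal tubule marker was at 0. Principal cell markers, of the cells that carry Aqp2, had a median of 0%, 0.285% and 0.348% of their kidney level under empagliflozin and of 0.126%, 0.240% and 0.190% under vehicle, where Aqp2 was at 0. The part of kidney RNA in these values was not tested.

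**Figure D4:**
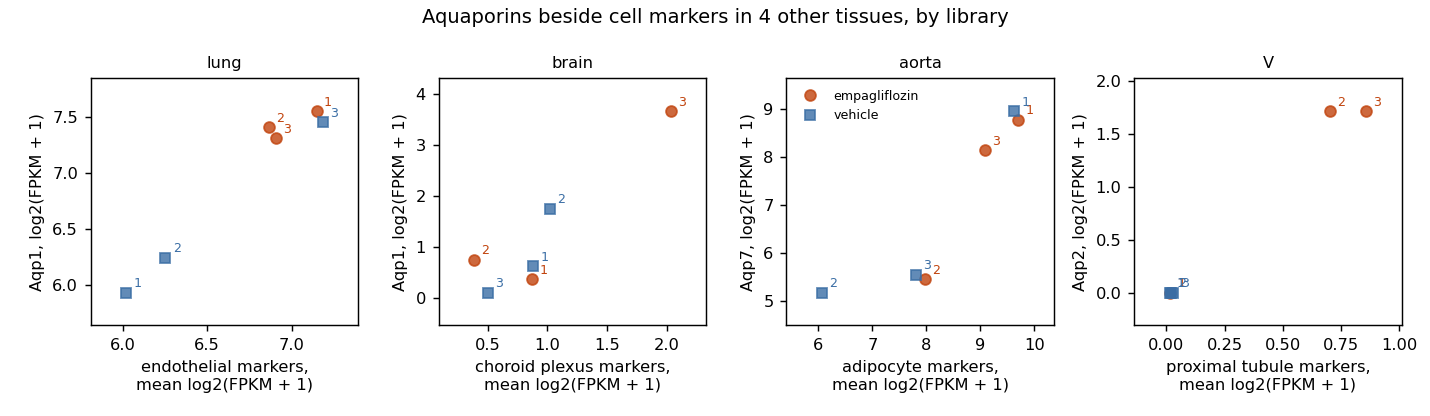
Levels of Aqp1 in lung, Aqp1 in brain, Aqp7 in aorta and Aqp2 in the libraries labelled V (vertical, log2(FPKM + 1)) against the mean log2(FPKM + 1) of a marker list (horizontal) in 6 libraries each, with library numbers beside empagliflozin circles and vehicle squares. Vehicle lungs 1 and 2 lie at the bottom left, empagliflozin brain 3 at the top right, both aortas numbered 1 and empagliflozin aorta 3 at the top right, and empagliflozin V libraries 2 and 3 at the top right.

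Atrium and V were compared in empagliflozin rats. Aqp7 had 11.4, 1.13 and 7.17 FPKM in atrium, against 129, 122 and 149.6 FPKM in V, without overlap. It was lower in atrium by a log2 difference of -4.48 ± 0.63 (SE), with an adjusted p of 5.2e-05 (limma), beside 17.5% of all genes past the threshold in this comparison. Adipocyte markers did not follow that order between the tissues. Their mean log2 level was 4.72, 2.05 and 3.18 in atrium and 2.72, 2.91 and 2.91 in V. Within atrium, library 1 was highest and library 2 lowest for both Aqp7 and these markers. Cardiomyocyte markers were at 10.5, 10.1 and 10.6 in atrium and 10.9, 10.6 and 10.5 in V. Aqp6 and Aqp2 were listed at 0 in all 3 atrium libraries and passed at -0.94 and -1.14, on levels of at most 2.28 FPKM in V. Aqp6 no longer passed without the libraries numbered 1 (adjusted p 0.0787) or 3 (0.0711), nor Aqp2 without those numbered 2 (0.222) or 3 (0.352) or with no filter on low levels (0.0514). Without the libraries numbered 3, Aqp7 alone of the 9 members tested passed. Aqp1 had 159, 167 and 222 FPKM in atrium and did not differ from V past the threshold, at -0.13 ± 0.59 (SE).

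Across tissues, the order of each member's levels was taken from the vehicle libraries and each step between neighbours was tested in the 24 empagliflozin libraries. These come from 3 rats by the design, and the fit takes the tissues of a rat as independent, since no label says that a number marks a rat. Of 60 steps 54 were tested, and 16 passed an adjusted p of 0.05 (limma), 15 in the vehicle order and 1 against it. Such steps pass for many genes, with shares of all genes between 43.5% and 65.4%. Aqp2, Aqp3 and Aqp6 were highest in kidney, above the next tissue by 9.53 (aorta), 7.35 (lung) and 6.73 (V) on the log2 scale. The shares of all genes past the threshold were 45.2%, 52.9% and 57% for these pairs. Aqp6 also passed for V above aorta, at 0.87 (43.5% of all genes), and Aqp2 passed for V above white fat, at 1.10 against the vehicle order, in which both were at 0, beside 43.9% of all genes. That last step was lost without the libraries numbered 2 (adjusted p 0.165) or 3 (0.223).

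Aqp5 was highest in lung, 6.87 above kidney, and its step from kidney to brain passed at 1.18, beside 62.4% of all genes. In vehicle libraries that step was 0.24 and did not pass. Aqp9 was highest in brain, by 1.21 above lung, and lung was 0.95 above aorta, beside 49.4% of all genes. Aqp4 was highest in brain, by 2.31 above lung, beside 63.9% of all genes, and kidney was 4.99 above white fat, beside 45.8%. Lung stood 1.13 above kidney for Aqp4 in the vehicle libraries, which set the order, so that value has no separate test. In empagliflozin libraries lung stood 0.35 below kidney, with an adjusted p of 0.473 (limma). Without the empagliflozin libraries numbered 2 it stood 0.96 below, with an adjusted p of 0.00705.

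Aqp11 was highest in kidney, by 1.35 above brain, and brain was 1.80 above brown fat, beside 65.4% of all genes for that pair. The step from kidney to brain was lost without the libraries numbered 1, at 0.96 with an adjusted p of 0.0581. Aorta was 1.18 above lung in empagliflozin libraries and 0.67 above it in vehicle libraries, where the step did not pass. Its levels in brown fat, white fat and aorta did not differ past the threshold between neighbours. Aqp1 did not differ past the threshold between neighbours among kidney, aorta, brown fat, V, white fat and lung, the step from kidney to aorta being 1.33 with an adjusted p of 0.0735. That step was 1.53 in the vehicle libraries, which set the order, so that value has no separate test. It passed with quantile normalization (1.5, adjusted p 0.0314, limma) and without the libraries numbered 3 (1.98, 0.000204). V above white fat also passed without those numbered 3 (0.81, 0.0343). Lung was 5.83 above brain. Aqp7 did not differ past the threshold between neighbours among brown fat, white fat, aorta, V and kidney, and kidney was 5.90 above lung. Without the libraries numbered 2, aorta passed above V (1.32, adjusted p 0.0109) and V above kidney (1.26, 0.00745) for Aqp7.

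**Figure D5:**
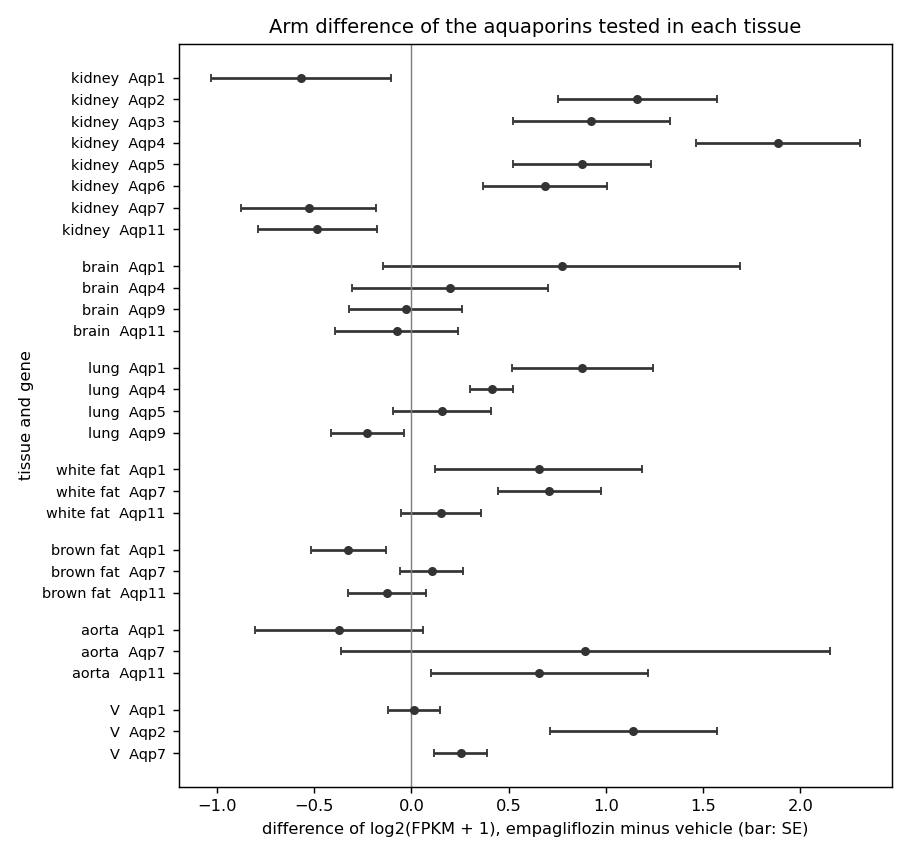
Difference of log2(FPKM + 1), empagliflozin minus vehicle, with its SE as a bar, for the 28 pairs of gene and tissue in which the member was tested (rows). Of these 19 lie right of 0 and 9 left of it, and none passed the adjusted threshold in its tissue. For Aqp5 in kidney, Aqp1 in brain and Aqp2 in V the direction is fixed by the level tested.

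Over all 7 tissues 28 pairs of member and tissue were tested between the arms, and 0 passed with limma. In 3 of them, Aqp2 in V, Aqp5 in kidney and Aqp1 in brain, only the empagliflozin mean reached 1 FPKM, which fixes their direction. Of the other 25 pairs 16 had a higher and 9 a lower mean under empagliflozin. Over all 90543 pairs of gene and tissue tested 56.9% were higher. Unlike the 25, all pairs include those that reached 1 FPKM in only 1 arm. Of the 25 pairs, 5 were higher and 0 lower at an unadjusted p under 0.05 (limma), beside 3.2% and 2.42% of all pairs. The arms did not overlap in 3 pairs, Aqp4 in kidney, Aqp4 in lung and Aqp7 in white fat, each higher under empagliflozin, beside 6.71% of all pairs that were higher without overlap.

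The genes most like each member over all 45 libraries were read from Pearson's r of log2(FPKM + 1) among 13255 genes, as a description that rests mostly on differences between tissues. Aqp2 ran most closely with Tmem213 at 0.996, then Cdh16, a kidney cadherin, and Klk1, a kallikrein. Aqp3 ran with Tmem213 at 0.995, then Rhcg, an ammonia channel, and Bsnd, a chloride channel subunit. Aqp6 ran with Klk1b3 at 0.994, then Tmem213 and Cdh16. Aqp5 ran with Acoxl at 0.995, then Mab21l4 and Slc6a14, an amino acid transporter. Aqp4 ran with Reps2 at 0.966, then Lratd1 and Fbxo16. Aqp9 ran with Prkcb at 0.962, then Kif21b and Kcnj4, a potassium channel. Aqp11 ran with Mpv17l at 0.959, then Mcoln1 and Thpo. Aqp7 ran with Chchd2 at 0.952, then Sdhaf2, an assembly factor of succinate dehydrogenase, and Pxmp2, a peroxisomal membrane protein. Aqp1, with the broadest levels, had Ctdsp1 at 0.946, then Adipor1, an adiponectin receptor, and Tcea3.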

How the data were processed

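The members, gene lists and tests were chosen with earlier results of these data known. Libraries were sequenced on a BGISEQ-500, with reads from 1 end and 50 bases long per the labels' protocols. HISAT2 2.0.4, Bowtie2 2.2.5 and build Rnor_6.0 are named per the submitters' processing notes, and for the step of counting a tool was not given in the sources used here. Per gene and library the authors deposited FPKM without counts or read totals, which allows no test on counts and no interval for counting error. Because FPKM is relative to the total of a library, a change in abundant transcripts moves the other values.

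Each tissue was tested alone with limma 3.58.1 in R 4.3.3 (trend, empirical Bayes, two-sided) on log2(FPKM + 1). Genes whose mean was under 1 FPKM in both arms were left out, and p-values were adjusted by Benjamini-Hochberg at 0.05. A pseudocount of 1 understates the change of low genes. With 3 against 3 libraries an exact permutation test cannot go below p = 0.1, so none was used. Tissue comparisons and the difference of arm effects used all libraries of the groups in 1 fit. Named genes are the members, the 3 genes most correlated with each that reached a group mean of 5 FPKM, and the 6 vasopressin genes of lowest p, and Gpam and Agpat2 were named beside this rule after their values were seen. Marker lists hold no aquaporin. Promoter windows come from RefSeq GRCr8 and Aqp7 had none. The script was tested on simulated data. Every pair of libraries with the same number correlated over 0.1 between the arms in lung (r of 0.227 to 0.346), a pairing read from the data and not from the labels, and in the other 6 tissues the numbers did not pair. Between tissues of 1 arm every pair was over 0.1 for brown fat with V under empagliflozin (r of 0.144 to 0.194) and for brown with white fat under vehicle (r of 0.166 to 0.229).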

Additional observations from a re-analysis of the deposited data

Results flagged for a closer look

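The arm difference of Aqp4 in kidney differed from the mean arm difference of the other 6 tissues by 1.76 on the log2 scale, with an adjusted p of 0.0044 (limma). All 3 empagliflozin kidneys, at 41.8, 15.4 and 51.9 FPKM, lay above all 3 vehicle kidneys, at 6.6, 7.8 and 10.0 FPKM. Relative to the principal cell markers the arm difference was 0.67, without overlap. In kidney fitted alone Aqp4 did not pass. In aorta, brown fat, white fat and V it was at most 0.11 FPKM, so these tissues held almost no level that could differ. The call was lost with a pseudocount of 0.1 and without the libraries numbered 1 or 3.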

How the results depend on the processing

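Depth is unknown, and 3 libraries per arm limit each test. The count of aquaporins called in kidney, 0 as reported, was 1 with all tissues in 1 fit (Aqp4, adjusted p 0.000641, limma, 179 genes called) and 0 to 5 when 1 library was left out. That fit called 195 genes in lung, 160 in brain, 122 in aorta, 110 in white fat, 4 in V and 0 in brown fat, against 0 to 1 per tissue fitted alone. Leave-one-out gave 0 to 1 in lung and 0 to 1 in V, in V for Aqp2 without empagliflozin library 1, among 19 genes, whose direction the filter fixes. The count with a different arm effect in kidney, 1 as reported, was 0 with a pseudocount of 0.1 and 0 to 5 when the libraries of 1 number were left out. In atrium minus V the count of 3 became 1 to 2 when the libraries of 1 number were left out. The step of Aqp4 from lung to kidney was reversed in the vehicle libraries, which set the order, at 1.13. The cause was not tested. Of 386 alternative arm effects 378 kept their side of the threshold and 8 gained a call.

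With the replicate number as a block, 0 aquaporins passed in any of the 7 tissues, and Aqp4 in kidney kept its different arm effect with an adjusted p of 0.00402. Across tissues 16 steps passed with the block, as without it. The block changed no aquaporin call between the arms, in lung, where the numbers paired, or elsewhere.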
